A study of Homo sapiens with 4 samples.

Results

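The genes examined here are 10 members of the pluripotency network, the set of regulators that keeps human embryonic stem cells (hESCs) undifferentiated: POU5F1, SOX2, NANOG, KLF4, PRDM14, ZFP42, LIN28A, LIN28B, SALL4 and DPPA4. They were taken by name, with earlier results of these data known, and are 10 of the 20033 protein-coding genes that the GENCODE annotation places on the chromosomes. Binding of the transcription factor GATA3 was mapped by chromatin immunoprecipitation and sequencing (ChIP-seq) in H1, an established hESC line maintained in mTeSR1 medium, after 6 h of BMP4 at 50 ng/ml. The labels describe 4 samples, 2 GATA3 ChIP replicates and 2 inputs, all of them treated with BMP4. Position lists of the 2 ChIP replicates were analysed, and inputs entered only through the authors' peak calling. An untreated GATA3 ChIP sample was not analysed here, so a position says where GATA3 was found after BMP4 and not whether BMP4 brought it there. The lists hold no expression values, so the stem cell label could not be checked against marker genes, and chromatin from many cells does not show in which share of them a site was bound.

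OCT4 (the product of POU5F1), SOX2 and NANOG bind together at many enhancers of pluripotent cells, including those of their own genes. OCT4 and SOX2 often share a composite element, in which a SOX site and a POU site stand side by side. GATA3 is a zinc finger factor of the trophoblast and other lineages that recognises a short sequence around the letters GATA, and BMP4 is a signal that drives hESCs out of pluripotency. The question for each gene was whether GATA3 lay near it after BMP4, whether the replicates placed it at the same site, and what sequence was there.

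A position was assigned to a gene if it lay within 100 kb of the 5′ end of the gene record, inside the gene body, or carried the gene's name in the authors' list. A shared region was a pair of positions, 1 from each replicate, no more than 100 bp apart, and its centre was their mean. Distances below are from the start of the canonical transcript unless another start is named. By these rules the members had 31 positions in replicate 1 and 21 in replicate 2, a ratio of 1.48 against 1.44 for the whole lists. They formed 16 shared regions. Of the members' positions 51.6% in replicate 1 and 76.2% in replicate 2 were shared, beside 49.55% and 71.5% of all positions. The replicate positions of a shared region were between 5 and 67.5 bp apart, with a median of 30 bp (23 bp over all 9145 shared regions).

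The sequences of the POU5F1 regions are shown first, because a composite element lies near the centre of one of them and neither holds the GATA motif. The motif was counted as AGATAA or AGATAG, and likewise as TGATAA or TGATAG, on either strand of the 200 bp around a region's centre. All sequences are the hg38 plus strand. Capitals mark the GATA motif, the SOX motif (ACAAAGG or ACAATGG) and the OCT-SOX composite (a SOX part, 1 base of any kind and a POU part), each on either strand. A match is a description and not a proven binding site. A composite can overlap a SOX match, as it does in the first sequence.

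POU5F1, 2.44 kb upstream (chr6:31173018-31173217): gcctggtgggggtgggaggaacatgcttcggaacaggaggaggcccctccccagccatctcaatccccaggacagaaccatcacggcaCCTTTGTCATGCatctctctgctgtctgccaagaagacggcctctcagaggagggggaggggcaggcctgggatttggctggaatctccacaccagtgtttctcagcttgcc

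POU5F1, 1.35 kb upstream (chr6:31171934-31172133): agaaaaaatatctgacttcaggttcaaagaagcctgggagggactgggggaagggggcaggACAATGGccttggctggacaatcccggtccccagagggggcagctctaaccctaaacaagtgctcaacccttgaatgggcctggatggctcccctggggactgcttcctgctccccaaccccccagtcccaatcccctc

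POU5F1 encodes OCT4. The gene record occupies bases 31164337 to 31180731 of chromosome 6, minus strand, but the canonical transcript starts at 31170682, 10.05 kb inside it. GATA3 was found at both regions in both replicates and at no other place within 100 kb. Replicate 1 had positions 31173092 and 31172049, and replicate 2 had 31173144 and 31172019. The replicates were thus 52 bp apart at the upstream region and 30 bp apart at the one nearer the start. The regions lie 2.44 and 1.35 kb upstream of the canonical start, inside the gene record but outside the canonical transcript. The authors' list names both for PSORS1C3, a neighbouring noncoding gene. Counted from the gene record's 5′ end the same regions are 7.61 and 8.70 kb downstream, so their description as upstream or internal depends on the transcript.

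The upstream region held a composite match at 31173108 to 31173117, whose centre was 5.5 bp from the centre of the region. A SOX match overlapped it. The composite lay between the replicate positions, 31173092 and 31173144, and on neither of them, and the region's centre is their mean. The known distal and proximal enhancers of POU5F1 lie upstream of this start, and an OCT4-SOX2 element in the distal one is a textbook site of autoregulation. Coordinates of these enhancers were not in the sources used here, so the distance was taken to the composite match. Composite matches occurred in 2.09% of all shared regions (191 of 9145), with a median of 34.5 bp between match and centre. Of the 194 matches, 18.6% were within 10 bp of a centre. The region nearer the start had no composite and 1 SOX match, 36 bp from its centre.

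Neither POU5F1 region held the GATA motif, which 82.0% of all shared regions had. The 4 letters GATA alone occurred once in the region nearer the start and not in the other. Content of G and C was 60.5% in the upstream region and 59% in the other, beside a median of 44% over all shared regions. Of the 428 shared regions with at least 59% G and C, 52.1% held the motif. All 126 sequences of 75 bases, the read length, in each of the 2 windows occurred once on the chromosomes. A missing motif says only that these letters are not in the window.

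At SOX2 the picture differed in its sequence: each of its shared regions held the GATA motif. Those on both sides of the gene are shown, followed by the composite matches nearest to them, to let the places of the motifs be compared.

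SOX2, 8.34 kb upstream (chr3:181703486-181703685): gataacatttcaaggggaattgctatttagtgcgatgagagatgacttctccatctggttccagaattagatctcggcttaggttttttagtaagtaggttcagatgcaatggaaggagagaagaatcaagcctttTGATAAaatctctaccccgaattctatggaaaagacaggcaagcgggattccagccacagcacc

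SOX2, 6.74 kb upstream (chr3:181705081-181705280): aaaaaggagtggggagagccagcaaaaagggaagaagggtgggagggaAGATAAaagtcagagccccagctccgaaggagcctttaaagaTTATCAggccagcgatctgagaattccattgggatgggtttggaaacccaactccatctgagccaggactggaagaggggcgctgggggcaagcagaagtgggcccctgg

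SOX2, 4.88 kb downstream of the start (chr3:181716700-181716899): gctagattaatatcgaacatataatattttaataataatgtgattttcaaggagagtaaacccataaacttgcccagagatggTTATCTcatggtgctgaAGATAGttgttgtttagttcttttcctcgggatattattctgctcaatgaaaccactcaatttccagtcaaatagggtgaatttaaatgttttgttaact

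SOX2 composite match, 4.21 kb upstream (chr3:181707690-181707749): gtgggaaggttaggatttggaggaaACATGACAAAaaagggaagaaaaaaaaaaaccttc

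SOX2 composite match, 4.22 kb downstream of the start (chr3:181716114-181716173): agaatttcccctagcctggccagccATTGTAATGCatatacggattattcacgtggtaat

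SOX2, a single-exon gene for an HMG-box factor, occupies bases 181711925 to 181714436 of chromosome 3, plus strand, within the long noncoding gene SOX2-OT. Replicate 1 had 8 positions there and replicate 2 had 5, which formed 4 shared regions. At 8.34 kb upstream the positions were 181703601 and 181703571 in replicates 1 and 2. At 6.74 kb upstream they were 181705166 and 181705196. Downstream of the gene, 4.88 kb from the start, they were 181716827 and 181716773. These 3 lie in introns 7 and 8 of SOX2-OT, with 30, 30 and 54 bp between the replicates.

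The fourth region, 78.3 kb upstream at 181633649 and 181633673, lies in intron 6 of SOX2-OT with a GATA motif 2.5 bp from its centre. At the downstream region 2 GATA motifs were centred 14.5 and 2.5 bp from the centre of the region, one on each strand. That region had the lowest G and C content of the members' regions, 32%. At 6.74 kb upstream there were also 2 motifs, 49.5 and 7.5 bp from the centre, and at 8.34 kb upstream there was 1, at 38.5 bp. None of the 4 SOX2 regions held a SOX, octamer (ATGCAAAT) or composite match.

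SRR1 and SRR2 are known SOX2 enhancers, the first upstream of the gene and the second downstream, and SRR2 holds an element bound by OCT4 and SOX2. As at POU5F1, their coordinates were not in the sources used here. Within 10 kb of the SOX2 start there were 2 composite matches, 4.21 kb upstream (181707715 to 181707724) and 4.22 kb downstream (181716139 to 181716148). The downstream match was 0.657 kb from the centre of its nearest shared region, the one downstream of the gene. The upstream match was 2.54 kb from the centre of a different one, 6.74 kb upstream. No shared region at SOX2 therefore held a composite match in its window, whereas the upstream region of POU5F1 did. Even there the match lay between the replicate positions, 31173092 and 31173144, and on neither of them.

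Replicate 1 alone had 4 more positions at SOX2 and replicate 2 alone had 1. The closest to the gene was 181710852 of replicate 1, 1.07 kb upstream, with 61.5% G and C and no GATA motif. Its nearest neighbour in replicate 2 was 5656 bp away. Others of replicate 1 were at 95.1 and 9.14 kb upstream and 17.0 kb downstream, and the one of replicate 2 was 44.8 kb downstream. Of these 5 only the position 95.1 kb upstream had a GATA motif in its window.

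**Figure D1:**
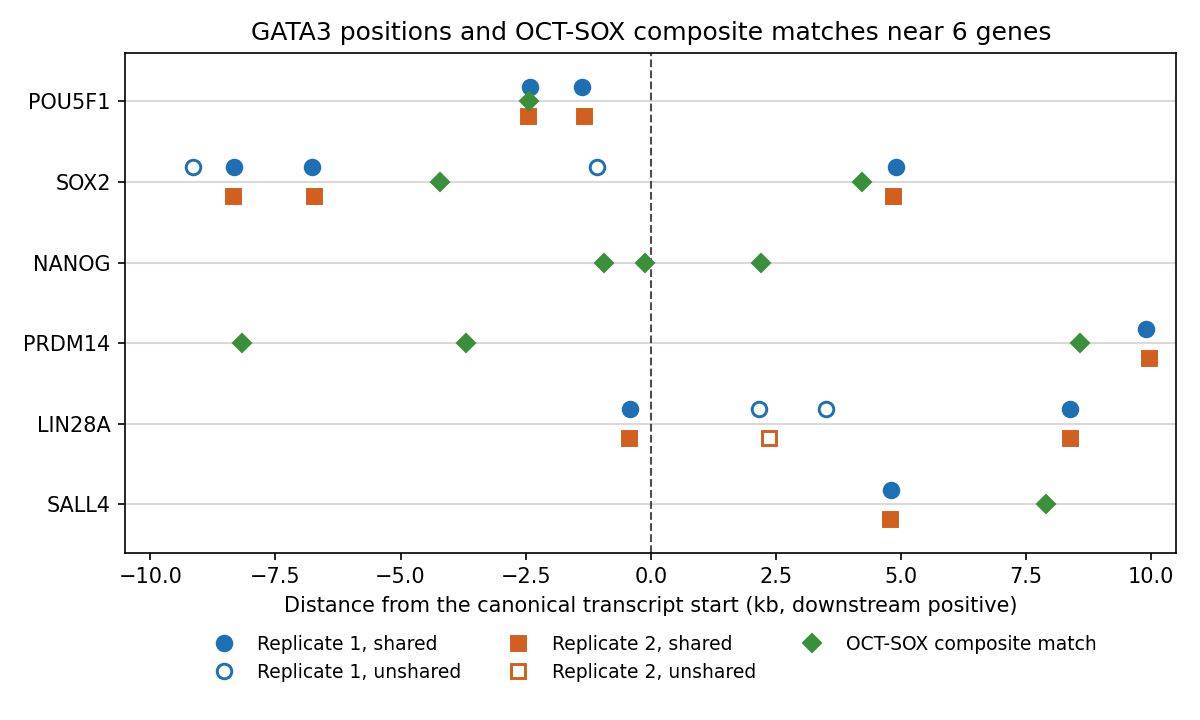
GATA3 positions within 10 kb of the canonical start of 6 genes, in kb along the direction of transcription, with circles for replicate 1, squares for replicate 2, filled marks for positions shared within 100 bp, and green diamonds for OCT-SOX composite matches. The centre of a shared region is 5.5 bp from a composite match at POU5F1 and 0.657 kb or more from the matches at SOX2, while NANOG has 3 matches and no position.

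NANOG, the homeobox factor whose loss marks exit from pluripotency, had no shared region. The gene occupies bases 7787794 to 7799146 of chromosome 12, plus strand. Replicate 1 listed no position within 100 kb and replicate 2 listed 1, at 7695293 in intron 1 of GDF3, 94.1 kb upstream, with 1 GATA motif. The nearest shared region was 147 kb away, and 57.4% of protein-coding genes had one as near or nearer. At least 1 composite match lay within 10 kb of the canonical start at 52.3% of protein-coding genes, and NANOG had 3. One of them, 0.113 kb upstream, is in the proximal promoter, where a composite bound by OCT4 and SOX2 is known.

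NANOG composite match, 0.113 kb upstream (chr12:7789260-7789319): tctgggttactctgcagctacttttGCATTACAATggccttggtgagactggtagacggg

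NANOG has closely related pseudogene copies, and the authors dropped reads that map to several places. Within 10 kb of its start 91.1% of 75-base sequences occurred once on the chromosomes, the lowest share among the members, which otherwise ranged from 96.4% to 99.9%. The part of this in the lack of positions was not tested.

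**Figure D2:**
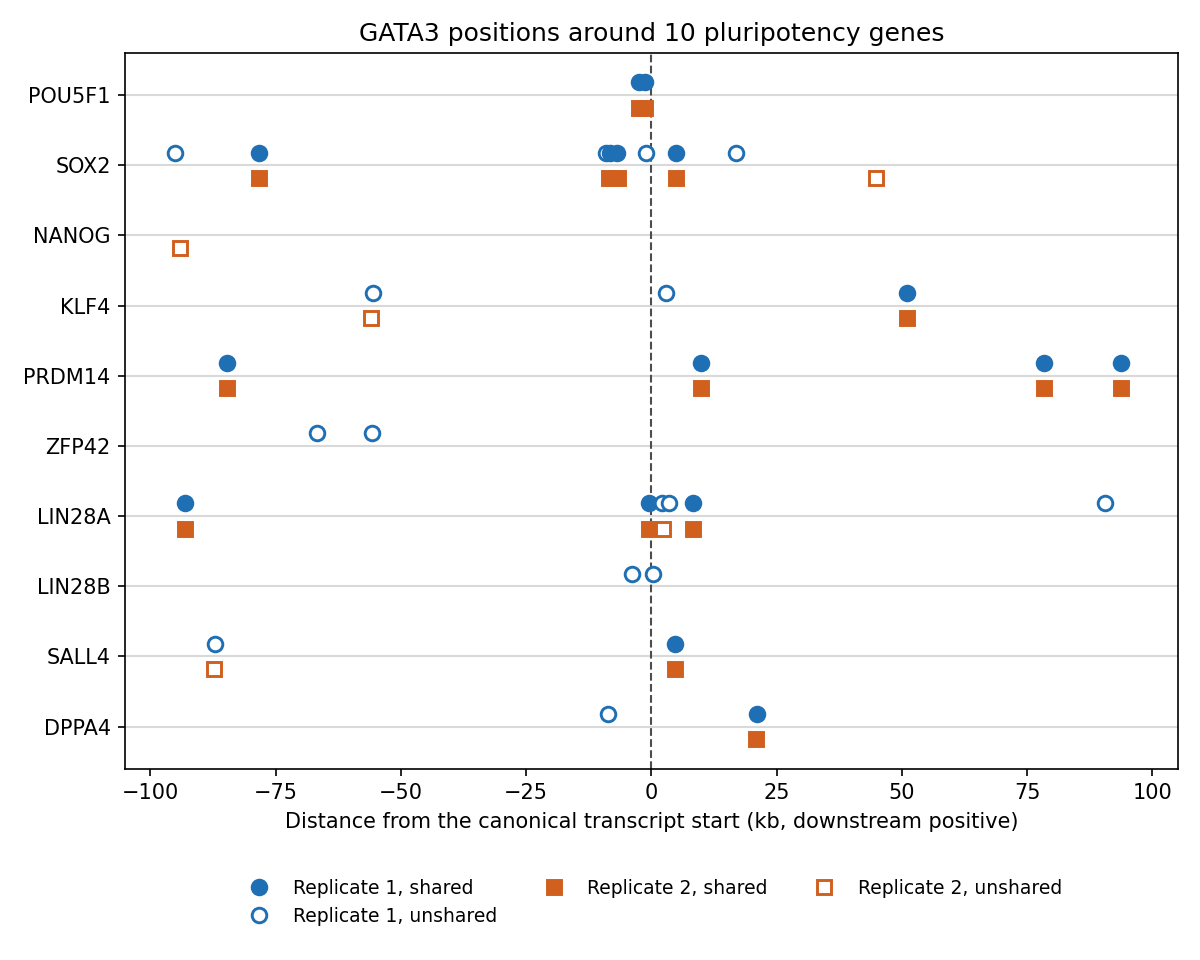
GATA3 positions around each of the 10 genes, in kb from the canonical start along the direction of transcription, with circles for replicate 1, squares for replicate 2 and filled marks for positions shared within 100 bp. Both replicates mark POU5F1, SOX2, KLF4, PRDM14, LIN28A, SALL4 and DPPA4, whereas ZFP42 and LIN28B have positions of replicate 1 only and NANOG 1 position of replicate 2.

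LIN28A and LIN28B encode related RNA-binding proteins that block the maturation of let-7 microRNAs, and they stood at opposite ends of the list. The LIN28A regions nearest the gene are shown because 1 lies just upstream of its start and the other holds overlapping GATA motifs.

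LIN28A, 0.421 kb upstream (chr1:26410346-26410445): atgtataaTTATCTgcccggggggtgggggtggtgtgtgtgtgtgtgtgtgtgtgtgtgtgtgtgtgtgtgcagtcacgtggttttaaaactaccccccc

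LIN28A, intron 2 (chr1:26419142-26419241): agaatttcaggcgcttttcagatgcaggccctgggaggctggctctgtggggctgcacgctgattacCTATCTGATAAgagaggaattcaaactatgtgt

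LIN28A (chromosome 1, 26410817 to 26429728, plus strand) had 6 positions in replicate 1 and 4 in replicate 2. The region 0.421 kb upstream had positions 26410409 and 26410384 and was the nearest to a start among all members. A shared region as near or nearer was present at 1.26% of protein-coding genes. Its window holds a run of TG repeats, with a GATA motif 39.5 bp from its centre. As in the windows of all 16 regions, each of its 75-base sequences still occurred once on the chromosomes. The region in intron 2, 8.38 kb downstream, had positions 26419189 and 26419195, only 6 bp apart. Its 2 GATA motifs overlap by 1 base on opposite strands.

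Between them, also in intron 2, replicate 1 had 26412988 and replicate 2 had 26413175. These were 187 bp apart and so did not count as shared, although each had a GATA motif in its window. Replicate 1 had a further position there, 3.50 kb from the start, with 1 GATA motif, and another 90.6 kb downstream with none. The third shared region, 93.0 kb upstream, was 0.188 kb upstream of the start of CD52 and so belongs more nearly to that gene.

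For LIN28B (chromosome 6, 104936616 to 105083332, plus strand) the canonical start lies 20.5 kb inside the gene record. Replicate 1 had 2 positions and replicate 2 had none. One of replicate 1 was 0.389 kb downstream of the canonical start, in intron 1, and the other 3.94 kb upstream. Neither had a GATA motif, and the nearest positions of replicate 2 were 267651 and 263319 bp away. LIN28B was the member farthest from a shared region, at 267 kb, with 77.3% of protein-coding genes as near or nearer.

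SALL4 is a zinc finger partner of OCT4. The gene occupies bases 51782331 to 51802521 of chromosome 20, minus strand. Its shared region lay 4.79 kb downstream of the start at 51797719 and 51797741, 22 bp apart, with the motif 4.5 bp from the centre. A further pair of positions, 87.1 kb upstream at 51889536 and 51889722.5, was 186.5 bp apart and so not shared.

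KLF4 is a zinc finger reprogramming factor (chromosome 9, 107484852 to 107490482, minus strand). Its only shared region, 51.0 kb downstream in intron 3 of LINC01509, had 67.5 bp between the replicates, the widest gap among the members, and held 2 GATA motifs. Inside the gene, replicate 1 alone had 107486884 in intron 4, without a GATA motif. Upstream, 107545400 of replicate 1 and 107545624 of replicate 2 were 224 bp apart and not shared.

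DPPA4 (chromosome 3, 109326144 to 109337546, minus strand) encodes a chromatin protein that acts with the product of its neighbour DPPA2. The shared region, 109316541 and 109316576, was 21.0 kb downstream of the DPPA4 start but only 0.0415 kb upstream of that of DPPA2. It held a GATA motif 15.5 bp from its centre and a SOX match. Replicate 1 alone had 109346162, 8.62 kb upstream of DPPA4, with 2 GATA motifs. ZFP42 (REX1), a marker of undifferentiated cells (chromosome 4, 187995771 to 188005046, plus strand), had replicate 1 positions 66.7 and 55.8 kb upstream and none of replicate 2 within 100 kb. Each of these had 1 GATA motif.

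PRDM14, a zinc finger regulator needed for hESC identity, lies on chromosome 8 (70051651 to 70071693, minus strand). As at POU5F1, no position was left unshared. All 4 positions of replicate 1 had a partner in replicate 2, between 5 and 59 bp away. One region was in intron 5 of the gene, at 70061360 and 70061301, 9.92 kb downstream of the canonical start but 10.4 kb from the gene record's 5′ end. The others were 78.3 and 93.8 kb downstream, between genes, and 84.6 kb upstream, in intron 11 of NCOA2. The GATA motif was in the intron 5 and NCOA2 regions and in neither of the intergenic ones. A SOX match was in the region 93.8 kb downstream and in the NCOA2 region, there 1 bp from the centre. For the NCOA2 region the nearest canonical start of a coding gene was still that of PRDM14.

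Across the list, 7 of the 10 members had a shared region by the rule, beside 47.7% of all protein-coding genes. Taken alone, replicate 1 reached 9 members (68.7% of genes) and replicate 2 reached 8 (57.3%). Within 10 kb of the 5′ end of the gene record, 4 members had a shared region, POU5F1, SOX2, LIN28A and SALL4, beside 8.69% of genes. From the canonical start PRDM14 joined them, making 5 beside 8.8%. At least 2 shared regions within 10 kb were found at 3 members, POU5F1, SOX2 and LIN28A, and at 0.579% of genes (116). SOX2 was 1 of 11 genes with at least 3. The distance of 10 kb was chosen with the results known, and no test of the list was made.

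**Figure D3:**
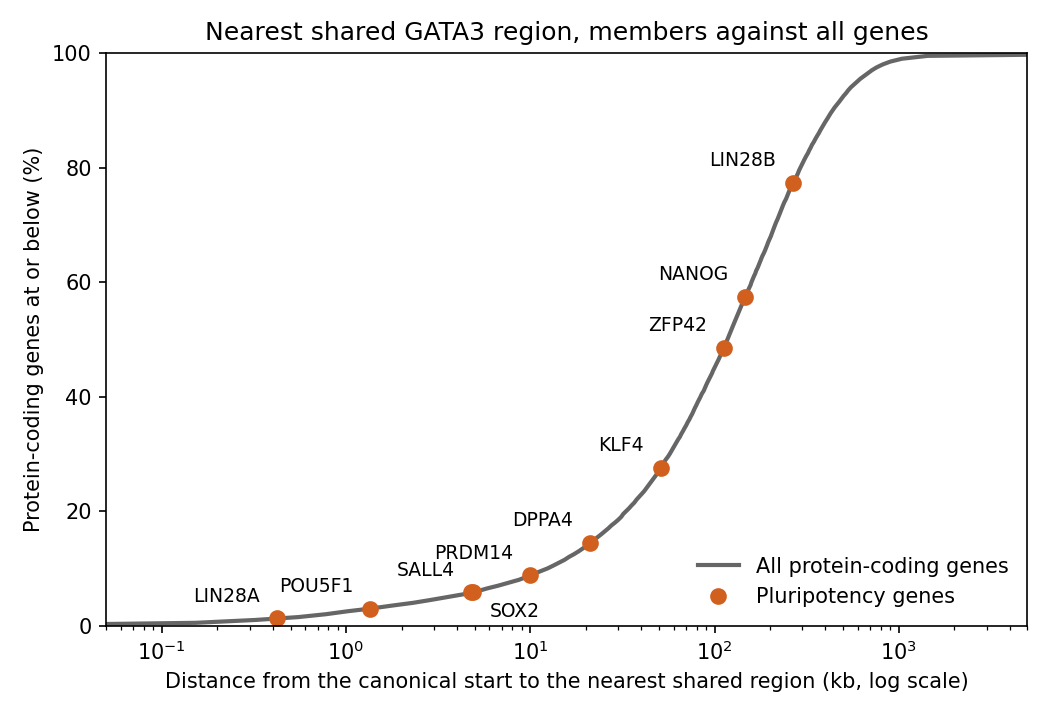
Distance from the canonical start to the nearest shared region on a log scale in kb (x axis) against the percentage of protein-coding genes at or below that distance (y axis), with the curve for all genes and points for the 10 members. Members run from LIN28A at 0.421 kb to LIN28B at 267 kb, and 8 of them lie nearer than the median of all genes, 118 kb.

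The median distance from the gene record's 5′ end to a shared region was 15.7 kb over the members and 118 kb over all protein-coding genes. The order of the members by distance from the canonical start was LIN28A (0.421 kb), POU5F1 (1.35 kb), SALL4 (4.79 kb), SOX2 (4.88 kb), PRDM14 (9.92 kb), DPPA4 (21.0 kb), KLF4 (51.0 kb), ZFP42 (112 kb), NANOG (147 kb) and LIN28B (267 kb). SALL4 and SOX2, neighbours in this order, differed by less than the 100 bp within which positions counted as shared. Of the 16 regions, 14 had a member as the gene with the nearest coding canonical start, and the authors' lists gave the member's name to 4.

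**Figure D4:**
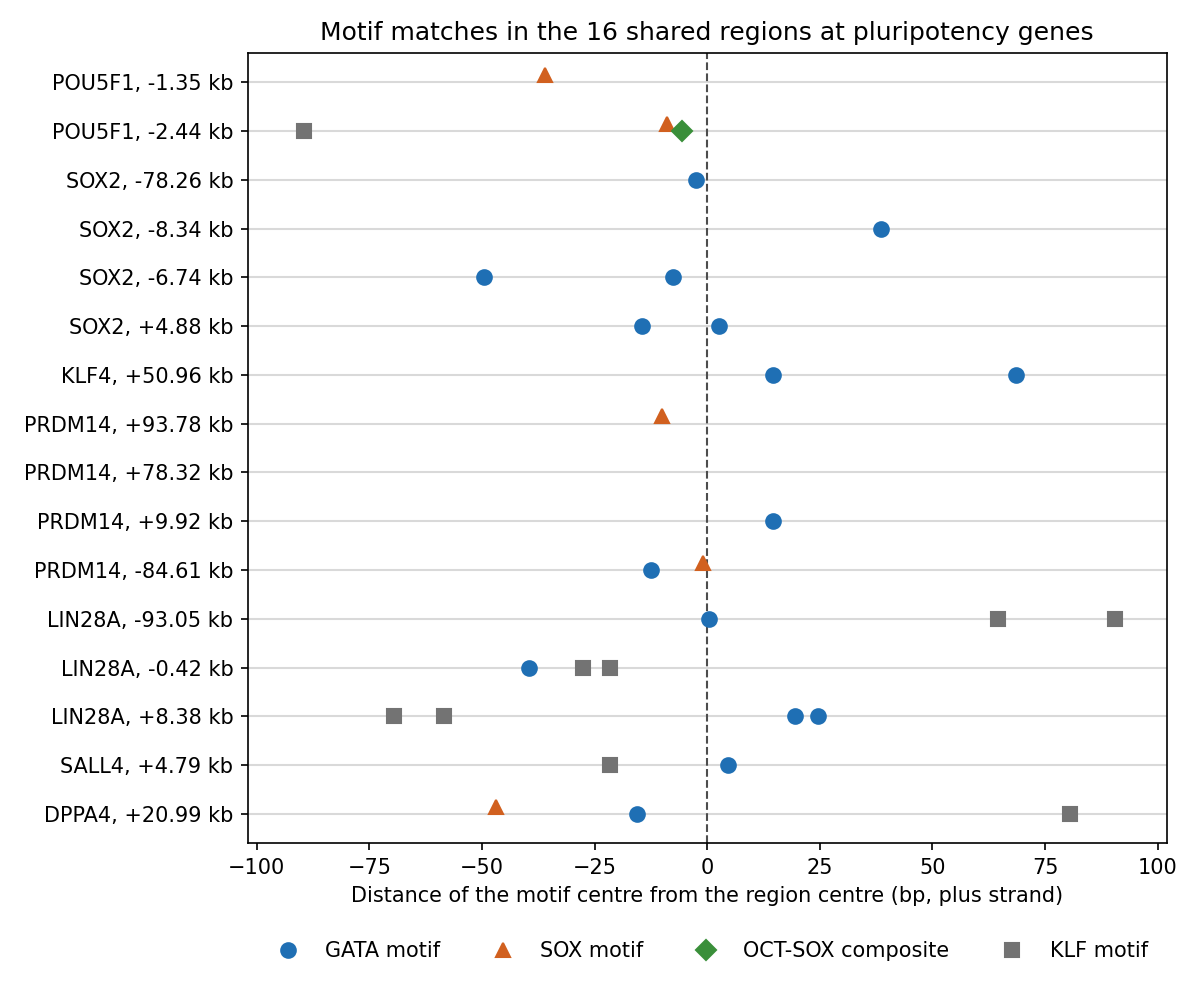
Motif matches in the 200 bp windows of the 16 shared regions, by the distance of the match from the region's centre in bp (x axis) and by gene and distance from the canonical start (rows). GATA motifs lie near the centre of most rows, and the POU5F1 and intergenic PRDM14 rows have none.

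In all, 12 of the 16 regions held the GATA motif, 75% (exact 95% CI 47.6 to 92.7), beside 82.0% of all shared regions. The 4 without it were both regions of POU5F1 and the 2 intergenic ones near PRDM14. An octamer, SOX or composite match was in 5 regions (31.2%, CI 11.02 to 58.7), beside 19.1% of all. Each of these 5 had a SOX match, which 13.3% of all regions had. The octamer was in 0 of the 16, which allows a share of up to 20.6% (exact 95% limit), beside 5.07% of all. The KLF motif, GGGNGTGG, was in 6 regions (37.5%, CI 15.2 to 64.6), beside 5.09% of all: 3 at LIN28A and 1 each at POU5F1, SALL4 and DPPA4. Of these, 1 LIN28A region and the DPPA4 region lie nearer to the starts of CD52 and DPPA2. KLF had the widest difference among the motifs searched, and its interval makes no allowance for that search. TEAD (GGAATG) was in 5 regions (31.2%), beside 18.9% of all. The E-box CACCTG was in 2 (12.5%, beside 13.5%) and AP-1 (TGACTCA or TGAGTCA) in 0 (beside 5.63%). Content of G and C was higher in the members' regions, with a median of 49.2%. In regions with at least 55% G and C the KLF motif was at 5 of the 7 members' regions and at 16.1% of all 802. Regions of SOX2, LIN28A and DPPA4 stood exactly at this cut of 55%. The part of G and C content in the KLF share was not tested. GTCTG, an element bound by SMAD proteins, which carry BMP signals, was in 5 regions (31.2%), beside 36.2% of all. GGCGCC, an element of SMAD1 and SMAD5, was in 1 region (6.25%), 78.3 kb upstream of SOX2, beside 1.96% of all. Regions of 1 gene are not independent, and the intervals cover counting error over regions only.

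Among unshared positions of the members, the GATA motif was in 7 of 15 in replicate 1 and 3 of 5 in replicate 2. Over all unshared positions the shares were 73.0% and 67.0%.

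A wider list of 38 pluripotency genes was examined in the same way. A shared region was found at 26 of them within 100 kb or in the gene body, and at 12 within 10 kb of the 5′ end, beside the 47.7% and 8.69% of all genes. Their median distance was 49.1 kb. By role, 14 of 21 core partners had a region, 6 of them within 10 kb. All 5 signalling genes had one (FGF2, FGF4, LEFTY1, LEFTY2 and NODAL), 3 within 10 kb. Among repressors and chromatin genes it was 4 of 5, 3 within 10 kb. Regulators of the naive state, an earlier form of pluripotency, had a region in 3 of 7 genes and in 0 within 10 kb.

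The 8 wider-list genes nearest to a shared region, measured from the gene record's 5′ end, were DPPA2 (0.0415 kb), TDGF1 (0.0495 kb), FGF2 (0.486 kb), SALL1 (0.778 kb), JARID2 (1.71 kb), SALL3 (1.88 kb), FOXD3 (2.61 kb) and L1TD1 (3.75 kb). This order depends on the start used. From the canonical start the nearest region was at -3.204 kb for TDGF1, -1.841 kb for SALL1 and 1.165 kb for NODAL (upstream negative). The DPPA2 region is the one counted for DPPA4. TDGF1 is a co-receptor of Nodal, FGF2 the growth factor that sustains hESCs in culture, and JARID2 a partner of the Polycomb repressive complex. SALL1 and SALL3 are relatives of SALL4, and FOXD3 is a forkhead factor of stem cells and neural crest. At least 2 shared regions within 10 kb were found at 3 of the 38 genes, ZIC2, LEFTY2 and SALL1, beside 0.579% of all genes. Some of these genes neighbour a member or each other, so their regions are not all separate.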

How the data were processed

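GATA3 was mapped by ChIP-seq in 2 replicates, each with its own input. Reads were single-end, of 75 bases. According to the methods the authors used cutadapt for adapters, bowtie for alignment (hg38), Picard for duplicates and MACS2 for peaks, each ChIP set against its own input. Multiply mapped reads and blacklisted regions had been dropped. Each deposited line gave 1 position, repeated as start and end, and a gene name, with no width, score or depth. How a peak became 1 position, and whether counting starts at 0 or 1, is not given in the sources used here, and positions may be off by 1 bp. Read depth could not be obtained from these lists.

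Files held 18545 and 12870 lines. The number of peaks stated in the study's methods is smaller for replicate 1 and larger for replicate 2, and the step between is not given in the sources used here, so the absence of a position refers to the deposited lists only. Distinct positions on the 24 chromosomes (18456 and 12782) were compared with hg38 sequence and GENCODE release 44. Motifs were searched on both strands of 200 bp windows. Intervals are exact (Clopper-Pearson). Uniqueness was counted as exact matches of 75-base sequences on the chromosomes. Functions were tested on simulated data. Python 3.11.15, numpy 2.4.6, pandas 2.3.3, scipy 1.17.1, pysam 0.24.0, numba 0.67.0 and matplotlib 3.10.9 were used. Both the 10 members and the wider list were chosen with earlier results of these data known. All 10 members and all their positions are named. Of the wider list the 8 genes nearest to a shared region are named, and ZIC2, LEFTY2, FGF4, LEFTY1 and NODAL were named after their values were seen. The sequence of the SALL4 region is not reported here.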

Additional observations from a re-analysis of the deposited data

How the results depend on the processing

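The lists have 2 replicates, no scores and no depth, so agreement in position was the only measure of error, and a stricter peak threshold could not be tried. No paired analysis was possible because no position lists of inputs entered the analysis and no groups were tested against each other. Limiting the GATA motif to its 4-letter core, regions to those nearest a member, and the distance to 10 kb were chosen after seeing the data. Of 65 alternative values, 57 stayed within the limits set and 8 did not. The limits were 1.5 times for counts, the exact 95% interval for shares, which is wide with 16 regions, and the SD between replicates, 5.34 kb, for the median distance. Within them the share with an octamer, SOX or composite match, 31.2% as reported, still ran from 19.4% (within 200 kb) to 43.8% (400 bp windows). Over all shared regions it was 19.1% in 200 bp windows, so within 200 kb the members' share was close to that of all.

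The number of members with a shared region was 7 and fell to 4 within 10 kb. It was 6 when only regions whose nearest coding canonical start was a member's were counted. The 16 regions became 10 within 50 kb, 31 within 200 kb and 8 within 10 kb. Using 1 replicate at a time there were 21 to 31 positions, the larger number without replicate 2, and the median distance ran from 8.13 to 15.7 kb. With sharing at 50 bp, 12 regions at 6 members were left and the median distance was 49.9 kb. The upstream POU5F1 region (52 bp between replicates), the downstream SOX2 region (54 bp), the PRDM14 region in intron 5 (59 bp) and the KLF4 region (67.5 bp) are the ones lost. At 250 bp there were 19. The wider list had 12 genes with a region within 10 kb. The GATA motif share ran from 61.3% without replicate 2 to 87.5% for the core. With all annotated genes as background, 46.6% had a shared region.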

Other observations

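Among all 9145 shared regions, 191 held an OCT-SOX composite match and 76.4% of these also held the GATA motif. The composite was in 2.73% of the 1648 regions without the GATA motif and in 1.95% of those with it. The upstream POU5F1 region is 1 of 45 shared regions with a composite and no GATA motif. The octamer was in 6.98% of regions without the GATA motif and 4.66% of regions with it, and the SOX motif in 12.7% and 13.5%. These values are a description, and regions without the motif were richer in G and C, with a median of 46% against 43.5%.

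Composite matches were also counted within 10 kb of the canonical start of each member. There were 14, with at least 1 at 9 of the 10 members, LIN28A being the exception. Over all protein-coding genes 52.3% had at least 1, with a mean of 0.811. Apart from the match at POU5F1 the nearest to a shared region were those of SOX2 at 0.657 and 2.54 kb, PRDM14 at 1.34 kb and SALL4 at 3.10 kb.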
